A study of Bos taurus with 6 samples.

Results

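The miR-181 family in the small RNA of extracellular vesicles (EVs) released by bovine granulosa cells was examined for its response to heat stress (HS). Members were chosen by name, as the identifiers bta-miR-181a, bta-miR-181b, bta-miR-181c and bta-miR-181d. Of these 4 names, 3 were measured among the 512 miRNAs of the EV libraries (bta-miR-181a, bta-miR-181b and bta-miR-181d), and bta-miR-181c was not analysed here. Granulosa cells from follicles of 3 to 6 mm of slaughterhouse cattle were cultured for 24 h at 37 °C and then for another 24 h either at 37 °C (control-EVs, 3 libraries) or at 42 °C (HS-EVs, 3 libraries). Both groups shared a medium with exosome-depleted bovine serum, and EVs were precipitated from the spent medium with ExoQuick-TC. The deposited design text calls the libraries biological replicates, but the number of cows behind each one is not given in the sources used here.

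MicroRNAs of one family share a seed, the bases near the 5′ end that pair with target transcripts, and can therefore act on overlapping targets. The miR-181 family is known for its high level in developing lymphocytes, where miR-181a tunes T cell receptor signalling, and for targeting anti-apoptotic BCL2 proteins. In cultured mouse granulosa cells, miR-181a has been described to lower proliferation through activin receptor IIA. In the RefSeq annotation of the bovine ARS-UCD2.0 assembly, which is not the assembly the reads were mapped to, the family has 6 genes in 3 clusters of 2. MIR181A-1 and MIR181B-1 lie side by side. MIR181A-2 and MIR181B-2 do so within the span of NR6A1, which encodes the orphan receptor known as germ cell nuclear factor. MIR181C and MIR181D lie within the span of NANOS3, a germ cell gene, with MIR23A as the nearest other miRNA gene in gene order. The values do not tell the products of the 2 genes of bta-miR-181a apart, nor those of bta-miR-181b. bta-miR-181b is thus the cluster partner of bta-miR-181a, and bta-miR-181d is a relative from another cluster.

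The authors deposited read counts per miRNA scaled with TMM (trimmed mean of M-values), here called normalized read counts. In each library all values were whole multiples of the smallest one above 0, which was taken as 1 read, and 274434 to 2360980 reads per library were recovered. In every library this total exceeds the number of reads mapped to annotated miRNAs that the study lists for it, for a reason that was not tested. Read numbers, floors and counting intervals rest on this recovery. bta-miR-1246 took 59.9% to 98.6% of them and left 34141 to 235634 reads for all other miRNAs. HS-EVs replicate 1 stood apart. It had the most reads, the fewest on other miRNAs, and a single read in it was worth 4.11 normalized counts, against 0.697 to 1.98 in the other libraries. The fold changes of the members, the difference of the pooled family, the share of bta-miR-181a and the ratio of bta-miR-181b to it are therefore also given without this library. Values are relative to the other reads of a library, so that a change in which vesicles were collected and a change in miRNA per vesicle cannot be told apart.

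Few reads were assigned to the family, and bta-miR-181a and bta-miR-181b made up most of them. Over the 6 libraries there were 121 family reads, of which 63 (52.1%) belonged to bta-miR-181a, 49 (40.5%) to bta-miR-181b and 9 (7.44%) to bta-miR-181d. By mean normalized read count, bta-miR-181a ranked 173, bta-miR-181b 191 and bta-miR-181d 303 of the 512 miRNAs. bta-miR-181a exceeded bta-miR-181b in 5 of 6 libraries, but the mean log2 ratio of their reads, 0.28 ± 0.83 (SD, n = 6), was within the spread (p = 0.406, two-sided exact sign-flip test). bta-miR-181b exceeded bta-miR-181d in 6 of 6 libraries by 2.24 ± 0.80 on the log2 scale (SD, n = 6; p = 0.0312 by the same exact test, which can give no smaller value, and 0.0625 after adjustment over both comparisons of levels). These ratios had 0.5 reads added to each miRNA, and a count per library compares levels between miRNAs only as far as both were captured alike. The pairs were compared in the order of levels already seen, over the libraries of both groups together. The p of the second pair therefore adds nothing to its 6 of 6. bta-miR-181d had 0 to 5 reads per library, so that the size of this ratio also depends on the added 0.5 reads.

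On the normalized scale, bta-miR-181a was higher in every HS-EVs library than in any control-EVs library, but per 1000000 of all miRNA reads its groups overlapped, with HS-EVs replicate 1 (2.12) as the lowest library. In control-EVs replicates 1 to 3 its normalized read counts were 11.0, 10.5 and 1.98, whereas HS-EVs replicates 1 to 3 had 20.5, 20.9 and 27.7. The reads behind them numbered 6, 15 and 1 in control-EVs and 5, 19 and 17 in HS-EVs. The lowest value, in control-EVs replicate 3, thus came from a single read, below the 3 reads taken as the floor (5.93 normalized counts in that library). Such a separation with HS-EVs above was found in 19 of 512 miRNAs (3.71%). In the test fitted over all miRNAs with limma on log2(normalized read count + 1), the log2 fold change was 1.68 (standard error 0.60, 95% interval 0.35 to 3.01, adjusted p = 0.785). It was 1.76 without HS-EVs replicate 1 and 1.02 without control-EVs replicate 3, the library with the single read, and 0.41 on reads scaled by all reads. The difference was therefore not called at the threshold of the study, which asks for an adjusted p of at most 0.3 and at least 1 log2 unit of change in either direction. The study applied this threshold to results of edgeR and not of limma, so that calls here and there are not alike.

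bta-miR-181b, encoded beside bta-miR-181a in both of its clusters, had a higher mean normalized read count in HS-EVs, but its groups overlapped, and its direction turned on reads scaled by all reads (log2 fold change -0.23). Control-EVs replicates 1 to 3 had 5.51, 9.76 and 5.93 normalized read counts, and HS-EVs had 8.22, 14.3 and 22.8. The reads were 3, 14 and 3 in control-EVs and 2, 13 and 14 in HS-EVs. The overlap rested on HS-EVs replicate 1, whose 2 reads lay below the floor of 12.3 normalized counts in that library and under the value of control-EVs replicate 2. The mean was 7.07 ± 2.34 in control-EVs and 15.1 ± 7.33 in HS-EVs (SD, n = 3 each). The log2 fold change from limma was 0.93 (standard error 0.51, 95% interval -0.20 to 2.06, adjusted p = 0.873). It was 1.28 without HS-EVs replicate 1 and 0.60 without HS-EVs replicate 3, the library with the highest value.

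bta-miR-181d was at the limit of detection in both groups. Control-EVs replicates 1 to 3 held 1, 5 and 0 of its reads, and HS-EVs held 0, 2 and 1, so that a single library, control-EVs replicate 2, lay above the floor of 3 reads. The corresponding normalized read counts were 1.84, 3.49 and 0 in control-EVs and 0, 2.20 and 1.63 in HS-EVs. With 3 reads in HS-EVs and 6 in control-EVs, the ratio of its summed rates among reads other than bta-miR-1246 was 0.790, with a 95% interval from counting alone of 0.128 to 3.70. Its log2 fold change from limma was -0.20 (standard error 0.67, adjusted p = 0.955), and it turned positive (0.31) without HS-EVs replicate 1. The direction of a change in bta-miR-181d could not be told at this depth.

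**Figure D1:**
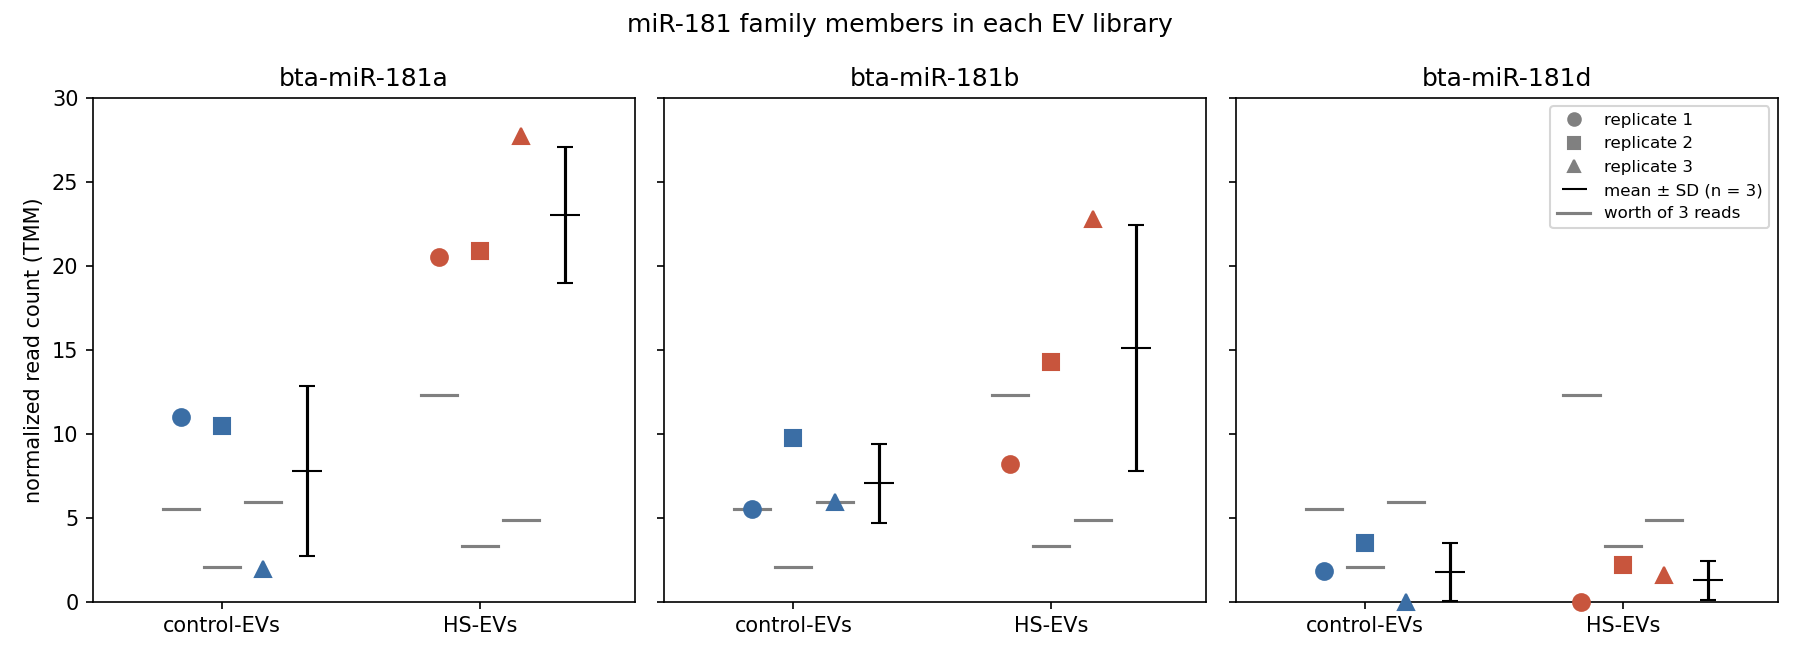
Normalized read counts (y axis, TMM-scaled by the authors) of the 3 measured members in each library of control-EVs and HS-EVs, with the mean and SD of each group and, as grey lines, the worth of 3 reads in each library. For bta-miR-181a the HS-EVs libraries sit at 20.5 to 27.7, all above the control-EVs libraries, for bta-miR-181b HS-EVs replicate 1 falls among the control-EVs libraries, and for bta-miR-181d 5 of 6 points lie below their grey lines.

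By the detection criterion of the study, at least 10 normalized counts in 2 of 3 libraries, bta-miR-181a was detected in both groups (2 of 3 control-EVs and 3 of 3 HS-EVs libraries). bta-miR-181b was detected in HS-EVs (2 of 3 libraries) and missed the limit in control-EVs (0 of 3, with 9.76 as its highest value). bta-miR-181d was detected in neither. The 2 control-EVs values of bta-miR-181a that passed, 11.0 and 10.5, lay just above the limit, and with a limit of 10 recovered reads instead, 1 control-EVs library passed.

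When the reads of the members were pooled, the family also separated the groups. bta-miR-181a, which separated them by itself, held 52.1% of the pooled reads, so that the sum is not independent of it. The groups overlapped for bta-miR-181b and for bta-miR-181d. Control-EVs replicates 1 to 3 had summed normalized read counts of 18.4, 23.7 and 7.90, below the 28.8, 37.4 and 52.2 of HS-EVs replicates 1 to 3. These values rested on 10, 34 and 4 reads in control-EVs and on 7, 34 and 32 reads in HS-EVs. The mean was 16.7 ± 8.04 in control-EVs and 39.4 ± 11.8 in HS-EVs (SD, n = 3 each), a ratio of 2.37 and a difference of 1.28 (standard error 0.51) in the mean log2(summed count + 1). Without HS-EVs replicate 1 the difference was 1.48, and without control-EVs replicate 3, which held 4 of the reads, it was 0.85. No p-value is given for the sum, because the members were chosen with earlier results of these libraries known.

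The separation of the pooled family depended on what the reads were scaled by. Per 1000000 miRNA reads excluding bta-miR-1246, control-EVs replicates 1 to 3 had 131, 144 and 54.4 family reads, while HS-EVs had 205, 275 and 369. The 95% Wilson intervals, which cover counting error only, were 21.1 to 140 for the lowest control-EVs library and 99.3 to 423 for HS-EVs replicate 1, and that of HS-EVs replicate 1 overlapped the interval of each control-EVs library. Summed over libraries, the rate in HS-EVs was 2.40 times that in control-EVs (95% interval from counting alone 1.65 to 3.53). Per 1000 reads of bta-miR-361, the miRNA used by the study as a reference in droplet digital PCR, there were 28.2, 24.1 and 11.9 family reads in control-EVs and 59.8, 52.2 and 106 in HS-EVs. bta-miR-361 itself had a log2 fold change of -0.44 (standard error 0.45), and scaling by it moved the median log2 fold change of all 512 miRNAs from 0.01 to 0.33. With HS-EVs above, the groups were separate in 4.30% of the 512 miRNAs on the scale without bta-miR-1246 and in 6.45% on the scale of bta-miR-361.

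Per 1000000 of all miRNA reads, in contrast, the family had 20.1, 57.8 and 14.6 in control-EVs and 2.96, 67.1 and 57.3 in HS-EVs. On this scale the groups overlapped, the mean was 30.8 ± 23.6 in control-EVs and 42.5 ± 34.6 in HS-EVs (SD, n = 3 each), and the difference in mean log2 values was -0.10. HS-EVs replicate 1, where bta-miR-1246 took 98.6% of the reads, was the lowest library. This scaling moved the median log2 fold change of all 512 miRNAs from 0.01 to -0.79, and on it 0.00% of the miRNAs had all HS-EVs libraries above all control-EVs libraries.

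**Figure D2:**
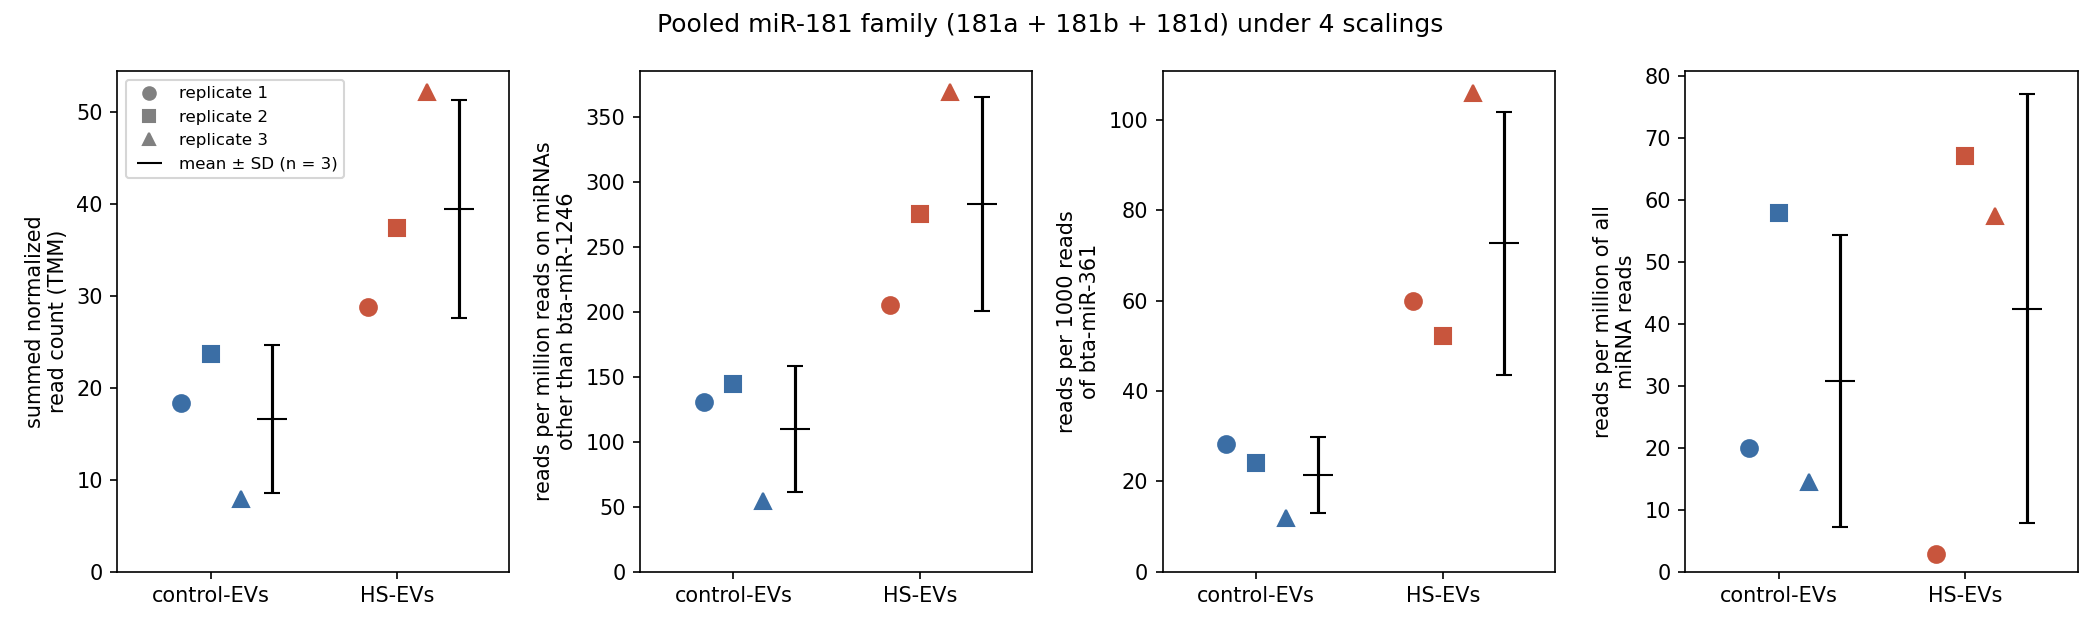
Pooled miR-181 family level (bta-miR-181a, bta-miR-181b and bta-miR-181d summed) in each library of control-EVs and HS-EVs on 4 scales, named on the y axes, with the mean and SD of each group (n = 3). On the first 3 scales all HS-EVs libraries lie above all control-EVs libraries. On the last, per 1000000 of all miRNA reads, HS-EVs replicate 1 is the lowest point at 2.96 and the groups overlap.

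Whether the relatives followed bta-miR-181a was also asked within libraries, where the scaling cancels. In control-EVs replicates 1 to 3, bta-miR-181a made up 60.0%, 44.1% and 25.0% of the family reads, and in HS-EVs replicates 1 to 3 it made up 71.4%, 55.9% and 53.1%. With 4 to 34 family reads per library, each share was imprecise (95% Wilson interval 4.56% to 69.9% in control-EVs replicate 3 and 36.4% to 69.1% in HS-EVs replicate 3). The mean share was 43.0% ± 17.5 in control-EVs and 60.1% ± 9.87 in HS-EVs (SD, n = 3 each), a difference of 17.1 percentage points (standard error 11.6) within the spread between libraries (p = 0.3 by a two-sided exact permutation test, which cannot go below 0.1 with 3 against 3). Without control-EVs replicate 3, which had 4 family reads, the difference was 8.09 percentage points, and without HS-EVs replicate 1 it was 11.5. Its direction was the same with each library left out.

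The cluster partner was compared with bta-miR-181a by the log2 ratio of bta-miR-181b to bta-miR-181a reads. Control-EVs replicates 1 to 3 had values of -0.89, -0.10 and 1.22, and HS-EVs had -1.14, -0.53 and -0.27. The difference of -0.72 (standard error 0.67) was smaller than the spread of the control-EVs libraries, 1.07 (p = 0.4 by the same two-sided exact permutation test, n = 3 each). It was -0.48 without HS-EVs replicate 1, -0.15 without control-EVs replicate 3, with its single read of bta-miR-181a, and -1.21 without control-EVs replicate 1. A change of bta-miR-181b equal to that of bta-miR-181a and a weaker one are both within this error. The ratio of bta-miR-181d to bta-miR-181a was -2.12, -1.49 and -1.58 in control-EVs and -3.46, -2.96 and -3.54 in HS-EVs. Its groups did not overlap (difference -1.59, standard error 0.27, p = 0.1 by the exact permutation test, its lower limit, and 0.2 after adjustment over the 2 ratios). With 9 reads of bta-miR-181d in all and 0 in 2 libraries, this ratio depends on the 0.5 reads added to each count.

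**Figure D3:**
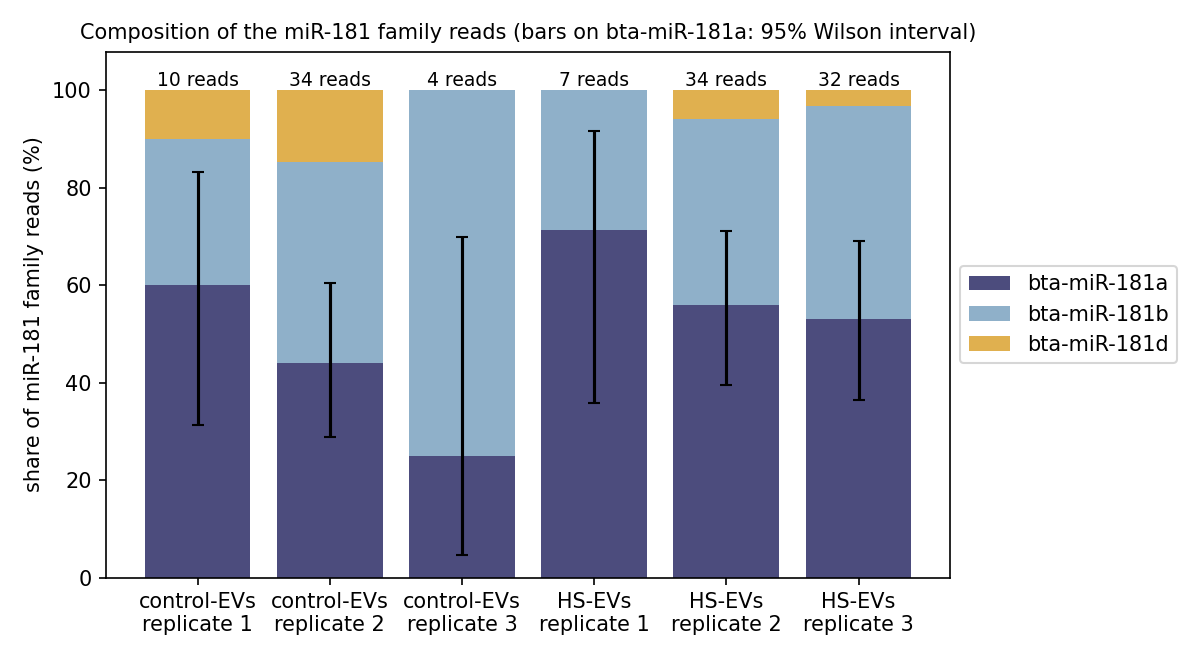
Share of the miR-181 family reads (y axis, %) taken by each member in the 6 libraries, with the number of family reads above each bar and the 95% Wilson interval of the share of bta-miR-181a as black lines. The intervals of all 6 libraries overlap one another, and the number of family reads ranges from 4 to 34.

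Among all miRNAs, bta-miR-181a and bta-miR-181b lay on the upper side of the fold changes and bta-miR-181d near the middle. Among the 213 miRNAs with a mean of at least 5 reads, which left out bta-miR-181d, bta-miR-181a ranked 4 and bta-miR-181b 14 from the highest log2 fold change, and the median of these miRNAs was 0.02. Over all 512 miRNAs the median was 0.01, against 0.93 for the 3 members, and 2 of the 3 members were above 0, as were 50.0% of all miRNAs. In limma's test, 0 of 512 miRNAs (0.00%) passed the threshold of the study, and 25 (4.88%) had an unadjusted p of 0.05 or less, of which 14 (2.73%) were higher in HS-EVs. bta-miR-181a was among the latter (unadjusted p = 0.0184), while bta-miR-181b (0.0960) and bta-miR-181d (0.773) were not. On the recovered reads, edgeR's quasi-likelihood test gave bta-miR-181a an adjusted p of 0.569 and DESeq2 one of 0.995.

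**Figure D4:**
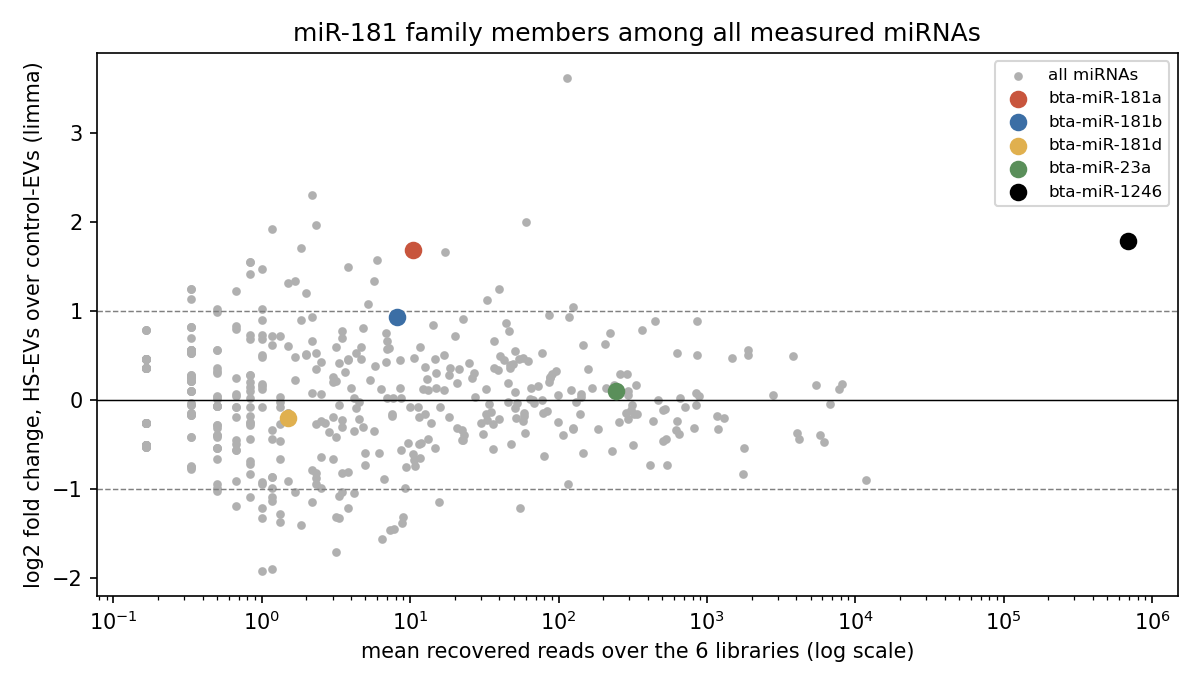
Log2 fold change of HS-EVs over control-EVs from limma (y axis) against the mean number of recovered reads over the 6 libraries (x axis, log scale) for all 512 miRNAs, with dashed lines at a log2 fold change of 1 and -1. bta-miR-181a lies at 1.68 and bta-miR-181b at 0.93, among miRNAs with few reads that scatter widely, and bta-miR-181d lies at -0.20.

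Other families were pooled by the number in the miRNA name, which is not a pooling by seed. Unlike the miR-181 names, some numbers join names ending in -3p and in -5p, as with bta-miR-99a-3p and bta-miR-99a-5p. bta-miR-98 was not counted with let-7. Of 164 families with a mean of at least 5 summed reads, 8 (4.88%) had all HS-EVs libraries above all control-EVs libraries, miR-181 among them, and by the difference in log2 level miR-181 ranked 6 from the highest. Of the 16 with at least 3 measured names, 2 (12.5%) separated in this way, miR-181 and miR-99, the latter with a difference of 0.56 and named after its values were seen. In the other 14, the let-7, miR-29, miR-30 and miR-200 families included, the groups overlapped. A shared direction was common: in 13 of 35 families with at least 2 names of 5 reads or more on average (37.1%), all of those names were higher in HS-EVs, as were bta-miR-181a and bta-miR-181b.

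The miRNAs whose normalized read counts most resembled those of bta-miR-181a over the 6 libraries were bta-miR-454 (Pearson's r = 0.96, Spearman's rho = 0.83), bta-miR-98 (0.94 and 0.66) and bta-miR-2284w (0.91 and 0.77), out of 211 candidates with a mean of at least 5 reads. These are descriptions over 6 libraries that also differ in group and depth. bta-miR-98, a member of the let-7 family, had 67.9, 65.5 and 43.5 normalized counts in control-EVs and 78.1, 64.9 and 81.5 in HS-EVs, so that it shared the low value of control-EVs replicate 3 while its groups overlapped. bta-miR-454 rested on 5.67 reads per library on average. The cluster partner bta-miR-181b came below 10 of the 211 candidates, with r = 0.70 and rho = 0.71. Within groups, after the group means were removed, r was 0.33 for bta-miR-181b and 0.93 for bta-miR-98. These values do not compare like with like. bta-miR-98 was picked from the 211 candidates for its correlation in these same libraries, and bta-miR-181b was named beforehand. For the pooled family the same 3 miRNAs came first, bta-miR-2284w (r = 0.93), bta-miR-98 (0.88) and bta-miR-454 (0.87).

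bta-miR-23a, the nearest other miRNA by gene order to MIR181C and MIR181D, is deeply read and belongs to another family. Its normalized read counts were 257, 337 and 425 in control-EVs and 349, 326 and 401 in HS-EVs, and its log2 fold change was 0.10 with a standard error of 0.44 (limma, adjusted p = 0.958). It did not resemble bta-miR-181a (r = -0.26, with 148 of the 211 candidates above it).

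Of 6 other miRNAs reported to act with or on the TGF-β and activin pathway in granulosa cells, 0 passed the threshold in either direction (0.00% of all miRNAs did). A log2 fold change above 0 was found in 4 and below 0 in 2, against 50.0% of all miRNAs above 0, and the median was 0.25, against 0.01 for all miRNAs. bta-miR-26b, which targets SMAD4 in porcine granulosa cells, had 506 ± 254 normalized counts in control-EVs and 886 ± 228 in HS-EVs (SD, n = 3 each) and a log2 fold change of 0.89 with a standard error of 0.50 (limma, adjusted p = 0.873). bta-miR-145, which targets activin receptor IB, had the opposite sign at -0.89 (standard error 0.52, adjusted p = 0.873). bta-miR-34a had a log2 fold change of 0.44, bta-miR-320a of 0.05, bta-miR-383 of 0.53 from at most 1 read in any library, and bta-miR-224, which also acts on SMAD4, of -0.23.

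Of 10 granulosa-expressed miRNAs, 5 had reads in all 6 libraries, among them bta-miR-21-5p and bta-miR-202, and bta-miR-212 had at most 1 read. Of the 10, 5 had a log2 fold change above 0 and 5 below 0 (median 0.04), against 50.0% of all miRNAs above 0. Their summed normalized counts overlapped between the groups. The log2 fold change was -1.38 for bta-miR-182 and -1.45 for bta-miR-183, each with 0 reads in HS-EVs replicate 1, and 0.51 for bta-miR-31. Because the miR-181 family is also expressed in lymphocytes, miRNAs of leukocytes were examined. All 6 had reads in each library, 4 had a higher and 2 a lower mean log2 value in HS-EVs, and their summed normalized counts ranged from 8183 to 12755 in control-EVs and from 8222 to 15949 in HS-EVs. The leukocyte sum was mostly bta-miR-155, with a mean of 10387 normalized counts in control-EVs and 11978 in HS-EVs. bta-miR-150, a lymphocyte miRNA, had 24.4 ± 5.73 normalized counts in control-EVs and 48.0 ± 17.6 in HS-EVs (SD, n = 3 each) without overlap (log2 fold change 0.91, standard error 0.47, adjusted p = 0.873 from limma), a separation found in 3.71% of all miRNAs. The groups overlapped in the other 5, of which bta-miR-142-3p (-0.08) and bta-miR-223 (-0.27) had log2 fold changes below 0. The summed 3 miRNAs of red blood cells ranged from 561 to 1283 in control-EVs and from 320.1 to 822 in HS-EVs, and 3 of 3 had a log2 fold change below 0 (median -0.22). The red blood cell sum was mostly bta-miR-486, with a mean of 787 normalized counts in control-EVs and 478 in HS-EVs. The summed 4 miRNAs of liver, which serum also carries, ranged from 12324 to 25526 and from 7610 to 13719, and 4 of 4 had a log2 fold change below 0 (median -0.25), against 50.0% of all miRNAs above 0. In these 7 miRNAs the groups overlapped and 0 passed the threshold. The liver sum was mostly bta-miR-122, with a mean of 19661 normalized counts in control-EVs and 10332 in HS-EVs (log2 fold change -0.91, limma, adjusted p = 0.873). The part of leukocyte, red blood cell or serum RNA in the miR-181 values was not tested.

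**Figure D5:**
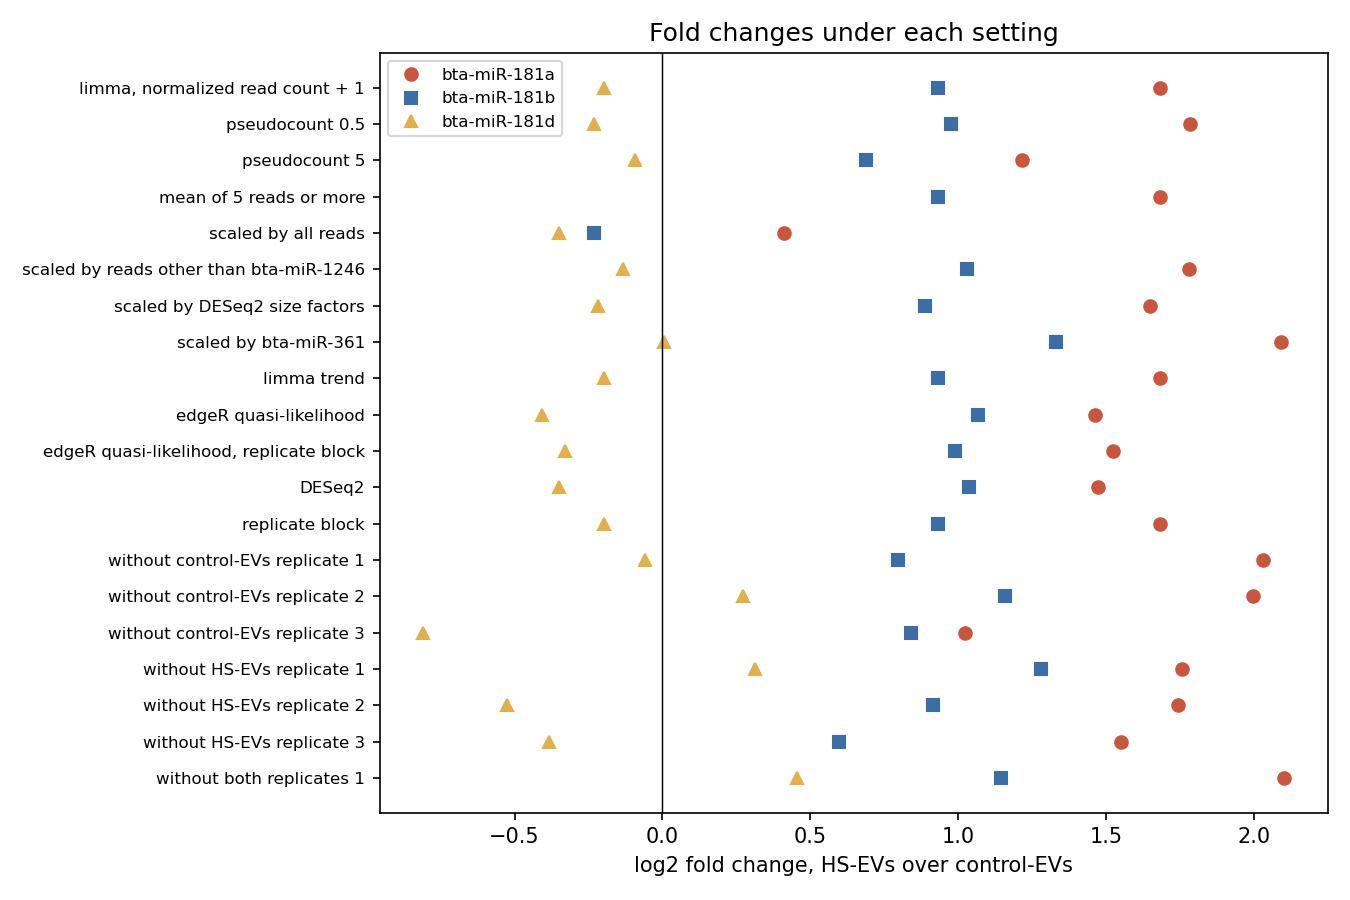
Log2 fold change of HS-EVs over control-EVs (x axis) of bta-miR-181a, bta-miR-181b and bta-miR-181d under each scaling, test and left-out library (y axis). bta-miR-181a stays positive throughout (0.41 to 2.10), bta-miR-181b is negative when reads are scaled by all reads (-0.23), and bta-miR-181d lies on both sides of 0.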

How the data were processed

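Small RNA of EVs was sequenced from 3 control-EVs and 3 HS-EVs libraries, grouped by the deposited labels. Reads were trimmed with Cutadapt (1.11), collapsed by unique molecular identifiers, mapped with Bowtie2 (2.2.2) to the bovine genome (UMD 3.1) with up to 1 mismatch in the first 32 bases and then to miRBase, so that reads of near-identical members could have been exchanged. The authors deposited TMM-normalized read counts (a signal, not raw counts). Whole reads were recovered from them (100% of values within 0.001 of a whole multiple of the smallest value).

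All 512 miRNAs were tested with limma (3.58.1, R 4.3.3) on log2(normalized read count + 1) without a filter, with Benjamini-Hochberg adjustment. edgeR (4.0.16) and DESeq2 (1.42.0) on the recovered reads, other scalings and pseudocounts, a filter (mean of 5 reads), the replicate block and leaving out each library were alternatives. Scaling by bta-miR-361, the blocked edgeR test, leaving out both replicates 1, the sign-flip tests of levels and the pooling by number in the name were chosen after the data were examined. The tests were also run on 10 simulated sets in which 200 miRNAs were changed. The check on recovery was set for miRNAs read more deeply than the members, so that it does not cover them. Other scalings were set to the same geometric mean worth of a read. Ratios and shares were tested by exact permutation of the library labels (10 divisions of 3 against 3, SciPy 1.17.1 for intervals). The error that intervals and the floor of 3 reads cover is that of counting alone. P-values of limma, edgeR and DESeq2 set a group difference against the spread between these libraries. Those of the exact tests place it among relabellings or sign flips of the same libraries.

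The members and lists were chosen with earlier results of these data known. The miRNAs named are the members, miRNA genes among the 2 neighbours on either side of a miR-181 gene, the 3 most correlated with bta-miR-181a and with the family, the TGF-β and activin list, bta-miR-1246 and markers. Other miRNAs with the same seed and the pooling by seed were not analysed here. No 2 of the 6 libraries were duplicates, as the lowest chi-square per degree of freedom among the 15 pairs was 34.3.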

Additional observations from a re-analysis of the deposited data

How the results depend on the processing

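bta-miR-181a stayed higher in HS-EVs and below the threshold in all 19 alternatives (log2 fold change 0.41 to 2.10, adjusted p 0.333 to 0.995; 1.02 to 2.03 with single libraries left out), and the members past the threshold numbered 0 in each. bta-miR-181b kept its direction in 18 of 19 alternatives (0.60 to 1.28 with single libraries left out) and turned to -0.23 on reads scaled by all reads, as did the pooled family (-0.10; 0.85 to 1.58 with single libraries left out). By construction this scaling lowers libraries with a large share of bta-miR-1246. bta-miR-181d turned to 0.0049 on reads scaled by bta-miR-361 and to 0.45 without both replicates 1, and lay between -0.81 and 0.31 with single libraries left out. It had no value with the filter on reads. Of all miRNAs, those past the threshold numbered 1 with a pseudocount of 0.5, 2 with limma's trend, 3 with edgeR's quasi-likelihood test, 31 without both replicates 1 and 0 to 4 with single libraries left out (4 without control-EVs replicate 2, 2 without HS-EVs replicate 1, 3 without HS-EVs replicate 2); the cause was not tested. The share of bta-miR-181a differed by 8.09 to 25.6 percentage points and the ratio of bta-miR-181b to it by -1.21 to -0.15 with single libraries left out. With 10 recovered reads as the limit, 1 control-EVs library passed for bta-miR-181a, which ended its detection in that group.

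Same-numbered libraries deviated from their group means with correlations of 0.14, 0.14 and 0.08, below the 0.1 set for pairing in 1 of 3 pairs, so that the numbers were not taken to pair the libraries. Each control-EVs library correlated best with its own number, a hint from the data and not from the design, and a shared batch was not tested. With the replicate number as a block, limma gave bta-miR-181a an adjusted p of 0.739, bta-miR-181b 0.835 and bta-miR-181d 0.925 and called 0 miRNAs, and edgeR's quasi-likelihood test called 7, of which 0 were members. The blocked p for the share and for the ratio was 0.25 (exact sign-flip test, two-sided, n = 3 pairs), the smallest possible.

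Depth limits bta-miR-181d throughout, and bta-miR-181a and bta-miR-181b in control-EVs replicates 1 and 3 and HS-EVs replicate 1, with 1 to 6 reads each.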
